A study of Rattus norvegicus with 6 samples.

Results

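The genes described here are 9 mitochondrially encoded genes of the rat respiratory chain: Nd1 (ENSRNOG00000030644), Nd2 (ENSRNOG00000031033), Nd4 (ENSRNOG00000029707) and Nd5 (ENSRNOG00000029971) of complex I, Cytb (ENSRNOG00000031766) of complex III, Co1 (ENSRNOG00000034234), Co2 (ENSRNOG00000030371) and Co3 (ENSRNOG00000030700) of complex IV, and Atp6 (ENSRNOG00000031979) of ATP synthase (complex V). They were chosen by Ensembl ID from a list that applies no threshold to their values, drawn up with earlier results of these data known, and all 9 IDs were present among the 26689 gene IDs of each count file. All 9 also passed the expression filter, which kept 9932 genes. The samples were primary hepatocytes, obtained by collagenase perfusion from animals of their own, and whole liver of the rat (Rattus norvegicus), each in 3 conditions. In treated IR, animals had ischemia reperfusion (IR), in which the portal vein is clamped for a time and then reopened. They received etanercept at 9 mg/kg between 18 and 16 h earlier, and nitroglycerin at 6 µg/kg/min into a vein before and during IR. Etanercept neutralises tumor necrosis factor, and nitroglycerin is a source of nitric oxide. In IR, animals had the same ischemia reperfusion without drugs, and in control they were healthy and untreated, with no sham operation named in the labels. Strain, sex and age are not given in the labels. RNA was taken 1 day after IR and that of 3 animals was pooled, so each of the 6 groups is 1 library and the spread between animals was not measured. A difference between 2 libraries has no replicate check, and higher or lower describes those libraries.

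Mitochondrial DNA is a small circle that is copied into long RNAs spanning many genes, which are then cut into single mRNAs, most of them carrying a poly(A) tail. The proteins made from these mRNAs sit in the inner mitochondrial membrane, where complexes I, III and IV move electrons from nutrients to oxygen and pump protons, and ATP synthase uses the proton gradient to make ATP. The remaining subunits of these complexes are encoded in the nucleus. Hepatocytes are rich in mitochondria, and the return of oxygen after ischemia acts on this electron chain.

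The pairs of name and ID are those of the defining list. The count files hold IDs only, and 0 of 26689 IDs could be matched to a symbol in the reference table, so the pairs could not be checked. For the same reason nuclear-encoded subunits, regulators of mitochondrial DNA and markers of liver cell types have no values here, and the labelled cell types were not checked against markers. Nuclear DNA of mammals carries copies of mitochondrial sequence, and neighbouring mitochondrial genes can overlap, so reads of these genes may have been lost or split in counting. This makes the levels of each gene uncertain to an unknown degree. Gene lengths were not used here, so levels are compared between libraries for a gene and not between genes.

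Reads counted in genes ran from 1945331 to 7160610 per library. At this depth the 95% Wilson interval of any of the 9 genes reached at most 4.50% of its share to either side, so counting error is small throughout. Intervals cover counting error only.

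The labels of the control and IR hepatocytes were at odds with the liver libraries, in genes other than the 9. Of the 86 genes with the most reads, 11 were at least 2-fold higher in both treated IR and IR liver than in control liver. Their summed level, in CPM (reads scaled to the same library size), was 178251 in hepatocyte treated IR, 31702 in the library labelled hepatocyte IR and 136879 in that labelled hepatocyte control. In liver it was 88980 in treated IR, 129120 in IR and 28060 in control. By this sum the library labelled hepatocyte IR stood near control liver, and that labelled hepatocyte control near the livers after IR. The make-up of the reads of the 9 genes, given below, did not show this pattern. In hepatocytes 11 of the 11 genes were lower in IR than in control, 9 of them at least 2-fold. Over all genes tested, 227 were at least 2-fold higher in both livers after IR. Of these, 52 were at least 2-fold lower and 18 at least 2-fold higher in hepatocyte IR vs control. Beside this, 688 of all 9932 genes tested were lower and 947 higher by the same rule. Of these 227 genes 121 were lower by any amount, with a median log2 ratio of -0.07. By direction alone the larger set was thus split nearly evenly, while its larger gaps were more often lower, unlike those over all genes. These genes were chosen after the values were seen, and whether a label is wrong was not tested. Groups are named by their labels below. An exchange of the labels of those 2 hepatocyte libraries would turn the direction of hepatocyte IR vs control. It would also make the treated IR vs IR comparison that of treated IR vs control.

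Together the 9 genes took a far larger share of reads in the libraries labelled hepatocyte treated IR and IR than in that labelled hepatocyte control, while in whole liver the share was close to the same in all 3 conditions. The summed share of reads in genes was 5.60% in hepatocyte treated IR (95% Wilson interval 5.57 to 5.63), 5.96% in hepatocyte IR (5.94 to 5.98) and 1.93% in hepatocyte control (1.92 to 1.95). In liver it was 3.03% in treated IR (3.01 to 3.04), 2.97% in IR (2.95 to 2.98) and 3.19% in control (3.16 to 3.21). The control hepatocytes were thus the lowest and both IR hepatocyte libraries the highest of the 6, with the 3 liver libraries between them. Named by their labels and as a ratio of shares, hepatocyte treated IR stood at 2.90 times hepatocyte control (95% Clopper-Pearson counting interval 2.87 to 2.93) and hepatocyte IR at 3.09 times (3.06 to 3.11). Liver treated IR stood at 0.950 times liver control (0.941 to 0.958) and liver IR at 0.931 times (0.922 to 0.939). With TMM scaling, described below, the sums of treated IR and IR stood at 0.905 (0.897 to 0.913) and 1.16 (1.15 to 1.17) times control in liver. In hepatocytes they stood at 3.42 and 2.97 times control. The direction of liver IR vs control thus depended on the scaling. In bulk RNA, more cells rich in these transcripts and more transcript per cell cannot be told apart.

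**Figure D1:**
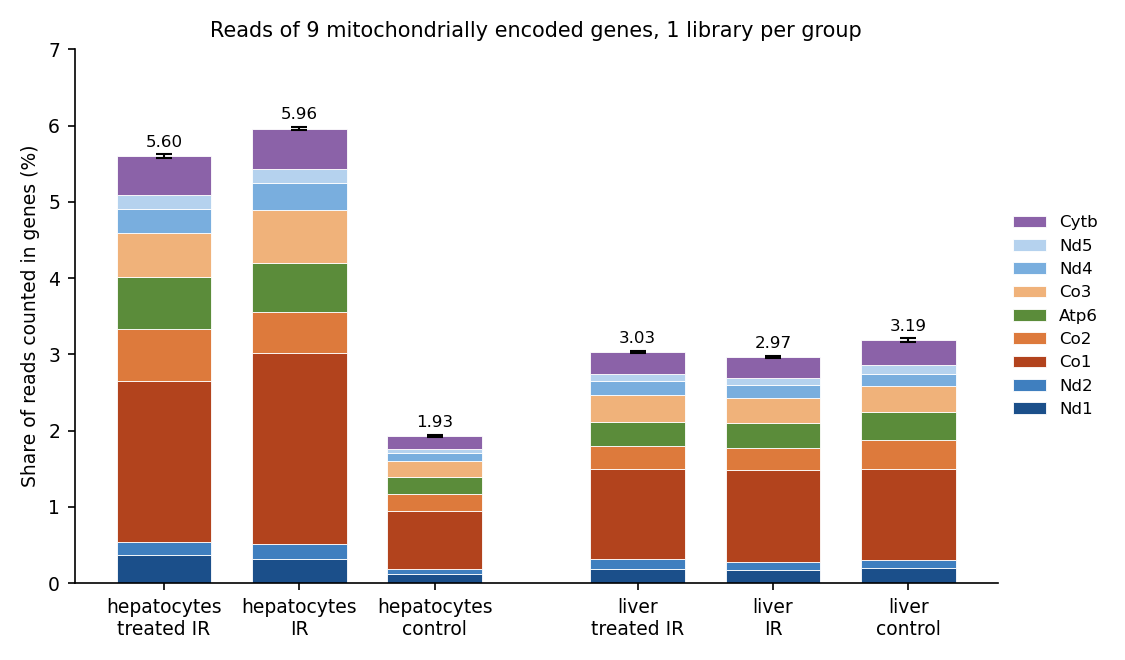
Share of reads counted in genes (%) taken by each of the 9 mitochondrially encoded genes (stacked colours) in each library, 1 library per group; black bars are 95% Wilson intervals of the sum, printed above each bar. The treated IR and IR hepatocytes reach 5.60% and 5.96%, against 1.93% in control hepatocytes, and the 3 liver libraries lie between 2.97% and 3.19%.

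Reads outside annotated genes were also a larger part in both hepatocyte libraries after IR than in control. They made up 7.57% of uniquely aligned reads in hepatocyte treated IR, 8.34% in hepatocyte IR and 6.23% in hepatocyte control, against 7.52%, 7.004% and 7.66% in liver treated IR, IR and control. With these and ambiguous reads in the denominator, the summed share of the 9 genes was 5.13%, 5.44% and 1.80% in hepatocyte treated IR, IR and control. It was then 2.79%, 2.75% and 2.93% in liver treated IR, IR and control. Any other part of these reads in the result was not tested. The most abundant gene was found in each library separately, so it need not be the same gene in all, and it was never one of the 9. It took 8.10%, 19.4% and 10.2% of reads in hepatocyte treated IR, IR and control, and 8.76%, 13.8% and 14.9% in liver treated IR, IR and control. The share of the top gene thus did not follow that of the 9.

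Complex I takes electrons from NADH, and Nd1, Nd2, Nd4 and Nd5 are subunits of its membrane arm. Nd1 took 0.365% of reads in genes in hepatocyte treated IR, 0.312% in hepatocyte IR and 0.122% in hepatocyte control, and 0.190%, 0.177% and 0.201% in liver treated IR, IR and control. Nd2 took 0.177%, 0.208% and 0.0602% in hepatocyte treated IR, IR and control, and 0.122%, 0.0988% and 0.0976% in the liver libraries in the same order. As shares, both genes were higher in hepatocyte treated IR and hepatocyte IR than in the other 4 libraries. The share of Nd2 was also higher in the treated IR liver than in the other livers. With TMM scaling, described below, Nd2 in liver treated IR stood at 0.944 times liver IR (0.913 to 0.975). Nd4 took 0.310%, 0.354% and 0.0949% in hepatocyte treated IR, IR and control, and 0.179%, 0.172% and 0.162% in liver treated IR, IR and control. Nd5 took 0.185%, 0.186% and 0.0600% in the hepatocytes and 0.104%, 0.0913% and 0.111% in the livers, again in the order treated IR, IR and control. For all 4 subunits control hepatocytes held the lowest share of the 6 libraries.

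Cytb is the subunit of complex III that carries the sites of quinone oxidation and reduction, and the only part of that complex encoded in mitochondrial DNA. Its share was 0.510% in hepatocyte treated IR, 0.534% in hepatocyte IR and 0.171% in hepatocyte control, and 0.279%, 0.278% and 0.334% in liver treated IR, IR and control. As a share, Cytb was thus about alike in the treated IR and IR livers, and lower there than in control liver. This depended on the scaling. With TMM, described below, liver IR stood at 1.04 times liver control (1.01 to 1.07) and liver treated IR at 0.765 times liver IR (0.750 to 0.781).

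Complex IV passes electrons to oxygen, and Co1 and Co2 hold its metal centres, while Co3 is the remaining mitochondrially encoded subunit of its core. Co1 took the most reads of the 9 genes in every library, 2.11% in hepatocyte treated IR, 2.49% in hepatocyte IR and 0.760% in hepatocyte control, and 1.18%, 1.21% and 1.20% in liver treated IR, IR and control. Among all genes Co1 ranked 6, 3 and 22 by reads in hepatocyte treated IR, IR and control, and 12, 9 and 7 in liver treated IR, IR and control. Its liver share hardly differed between conditions, though its liver rank did, and in hepatocytes both share and rank moved. With TMM scaling, described below, Co1 in liver treated IR stood at 0.742 times liver IR (0.734 to 0.749). Co2 took 0.679%, 0.545% and 0.226% in hepatocyte treated IR, IR and control, and 0.303%, 0.286% and 0.386% in liver treated IR, IR and control. Co3 took 0.585%, 0.696% and 0.215% in the hepatocytes and 0.359%, 0.332% and 0.338% in the livers, in the order treated IR, IR and control. As a share, Co2 had the widest gap of the 3 subunits in liver, where both IR libraries were below control.

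Atp6 is a membrane subunit of ATP synthase that forms part of the path of protons. It took 0.684% in hepatocyte treated IR, 0.632% in hepatocyte IR and 0.222% in hepatocyte control, and 0.314%, 0.321% and 0.361% in liver treated IR, IR and control. As with Co2, the share was thus highest in treated IR among hepatocytes and in control among livers. The order of the treated IR and IR livers was the reverse of that of Co2. With TMM scaling, described below, Atp6 in liver IR stood at 1.11 times liver control (1.08 to 1.14).

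To compare a gene with all others, read counts were scaled between libraries by TMM, which sets the bulk of genes at equal level, and given as CPM. A gene was called apart between 2 libraries when its ratio was at least 2-fold and the 95% Clopper-Pearson counting interval excluded 1, and no p-value was computed for such a pair. In the library labelled hepatocyte IR, 9 of 9 genes were apart and higher than in that labelled control, beside 9.53% of the 9932 genes tested (6.93% were lower). Nd4 stood at 3656 CPM in hepatocyte IR and 1016 CPM in hepatocyte control, a ratio of 3.60 (3.47 to 3.74), the highest of the 9. Nd2 was next at 3.33 (3.18 to 3.49), then Co1 at 3.16 (3.12 to 3.20) and Co3 at 3.11 (3.04 to 3.19). Cytb at 3.00 (2.92 to 3.09) and Nd5 at 2.99 (2.85 to 3.13) followed. Atp6 had a ratio of 2.74 (2.67 to 2.81), Nd1 of 2.46 (2.38 to 2.55) and Co2, the lowest, of 2.33 (2.27 to 2.39). Co2 stood at 5625 CPM in hepatocyte IR and 2415 CPM in hepatocyte control. Nd4 and Co2 lie on the same circle, and their counting intervals did not overlap. The 9 genes had a median log2 ratio of 1.59, beside 0.01 over all genes tested, and lay between the percentiles 93.1 and 98.3 of these.

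In hepatocytes with treated IR, 9 of 9 genes were again apart and higher than in control, beside 4.23% of all genes tested, and the ratios were closer together than after IR alone. They ran from 3.20 in Co3 (3.11 to 3.29) to 3.85 in Nd4 (3.70 to 4.01). Nd1 stood at 4606 CPM in hepatocyte treated IR and 1308 CPM in hepatocyte control, a ratio of 3.52 (3.40 to 3.65), and Co2 at 8565 and 2415 CPM, a ratio of 3.55 (3.45 to 3.64). The median log2 ratio was 1.82, beside 0.02 over all genes tested, and the 9 genes lay between the percentiles 99.3 and 99.7. Scaled by library totals alone the ratios ran from 2.71 to 3.27 and 9 of 9 genes stayed apart, while over all genes 1.88% were then higher and 8.17% lower in place of 4.23% and 4.09%. Both comparisons use the library labelled hepatocyte control, one of those whose labels are in doubt, so its level bears on both. A low level in that library and a high level after IR cannot be told apart with 1 library. Without the library labelled hepatocyte IR, the treated IR vs control ratios are what remains in hepatocytes. Without that labelled hepatocyte control, the treated IR vs IR ratios remain.

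Treated IR and IR hepatocytes were closer to each other. By the rule of size 0 of 9 genes were apart, beside 11.2% of genes higher and 12.1% lower (6.51% and 19.3% with library totals alone). After TMM the 9 ratios of treated IR to IR ran from 1.03 in Co3 (1.01 to 1.05) to 1.52 in Co2 (1.49 to 1.55), with Nd1 at 1.43 (1.40 to 1.47) and Atp6 at 1.32 (1.30 to 1.35). With library totals alone they ran from 0.840 to 1.24 and only 3 of 9 were above 1, so no common direction can be given. The summed share was 0.940 times as high in treated IR as in IR (0.934 to 0.945).

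**Figure D2:**
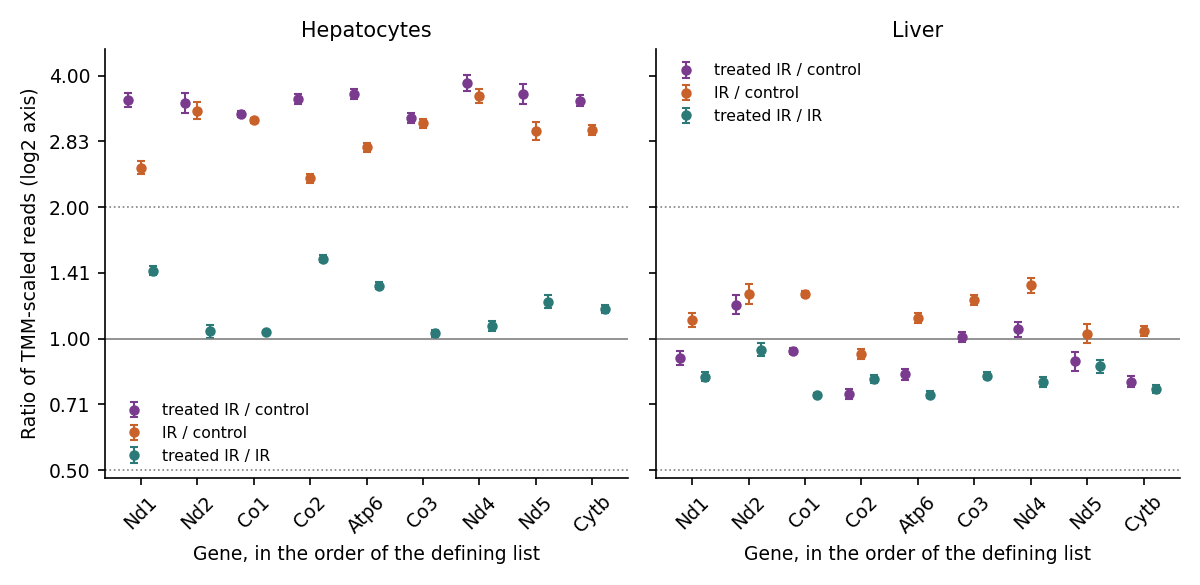
Ratio of TMM-scaled reads (log2 axis) for each of the 9 genes between conditions, in hepatocytes and in liver; points are ratios of 1 library to another, bars are 95% Clopper-Pearson counting intervals, and dotted lines mark 2-fold. In hepatocytes the ratios of treated IR and of IR to control lie between 2.33 and 3.85, and in liver those 2 ratios lie between 0.748 and 1.32.

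In whole liver none of the 9 genes was apart in any of the 3 comparisons. For treated IR vs control 0 of 9 were apart, beside 4.81% of genes higher and 2.39% lower, and the ratios ran from 0.748 in Co2 (0.728 to 0.768) to 1.19 in Nd2 (1.14 to 1.26). Co2 stood at 2453 CPM in liver treated IR and 3281 CPM in liver control. For IR vs control 0 of 9 were apart, beside 3.76% higher and 2.23% lower (1.33% and 5.79% with library totals alone). Here the ratios ran from 0.924 in Co2 (0.900 to 0.949) to 1.32 in Nd4 (1.27 to 1.38), with 8 of 9 above 1 after TMM and 3 of 9 with library totals alone. For treated IR vs IR 0 of 9 were apart, beside 1.82% higher and 0.946% lower (6.17% and 0.262% with library totals alone). The ratios ran from 0.742 in Co1 (0.734 to 0.749) to 0.944 in Nd2 (0.913 to 0.975), all below 1 after TMM, whereas 7 of 9 were above 1 with library totals alone. In liver the size of each gap was thus under 1.5-fold, and the sign of those for IR vs control and treated IR vs IR depended on the scaling. Against control Co2 was the lowest and Nd4 or Nd2 the highest of the 9.

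Genes with many reads vary less by counting than the bulk of genes, so the 9 genes were also set beside the 86 genes, themselves included, with a mean of at least 1274 CPM, the mean of Nd5, the lowest of the 9. This group was chosen after the values were seen. In hepatocyte IR vs control 15.1% of these genes, 13 in number, were apart and higher, and 9 of the 13 were the mitochondrially encoded genes. Another 18.6% were apart and lower, none of them among the 9. In hepatocyte treated IR vs control 13 genes, again 15.1%, were apart and higher, 9 of them mitochondrially encoded, and 0 were lower. There the 9 log2 ratios lay between 1.68 and 1.94 and the highest of the other 77 genes was at 1.41. For IR vs control 3 of the other 77 genes exceeded the lowest of the 9, with a highest log2 ratio of 1.58 against 1.85 for Nd4.

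**Figure D3:**
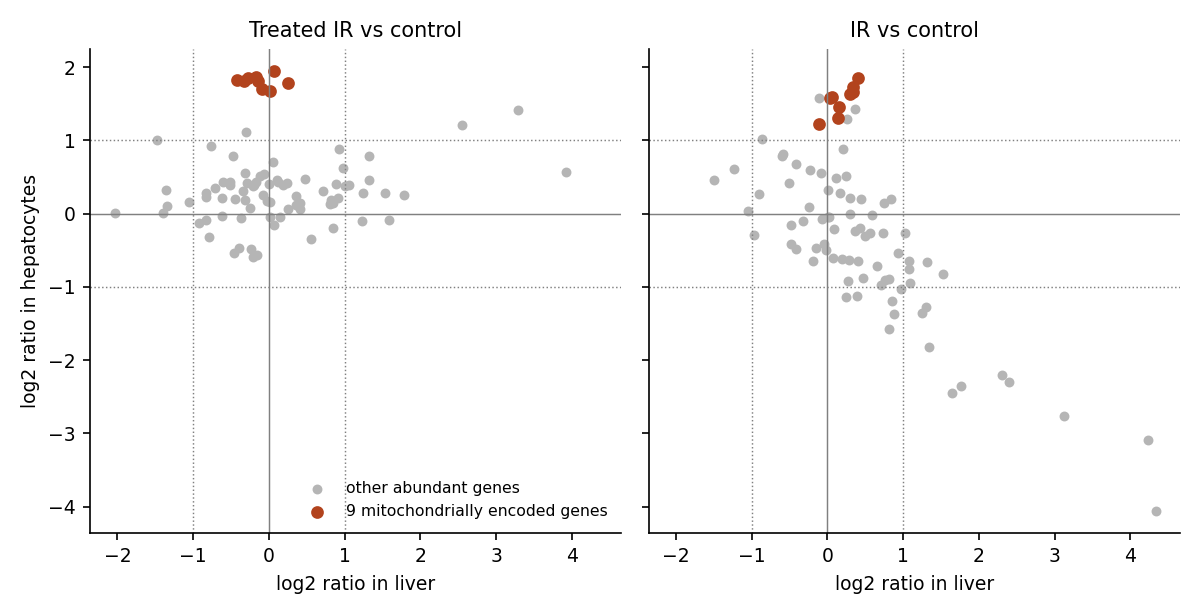
TMM-scaled log2 ratio to control in hepatocytes (vertical) against that in liver (horizontal) for 86 genes with a mean of at least 1274 CPM, for treated IR (left) and IR (right); red points are the 9 mitochondrially encoded genes, grey points the other 77, and dotted lines mark 2-fold. The red points lie between 1.22 and 1.94 on the hepatocyte axis and between -0.42 and 0.40 on the liver axis.

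Hepatocytes were then compared with whole liver within each condition, so that no library served in 2 comparisons. By the labels, the 9 genes were higher in hepatocytes than in liver in both IR conditions and lower in control, and the treated IR comparison is the one free of the labels in doubt. In treated IR 9 of 9 genes were apart and higher in hepatocytes, beside 6.88% of all genes tested. The ratios ran from 2.25 in Nd2 (2.17 to 2.34) to 3.49 in Co2 (3.42 to 3.56), with Atp6 at 3.40 (3.33 to 3.47) and Nd1 at 2.99 (2.91 to 3.07). These sizes depended on scaling: with library totals alone they ran from 1.44 to 2.23 and 2 of 9 genes were apart, while 1.09% of all genes were then higher and 30.8% lower in hepatocytes, in place of 6.88% and 12.8%.

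In IR alone 4 of 9 genes, Nd2, Co1, Co3 and Nd4, were apart and higher in hepatocytes, beside 5.9% of all genes tested. All 9 ratios lay between 1.71 in Nd1 (1.67 to 1.75) and 2.05 in Nd2 (1.98 to 2.11), so those called and those not called differ little and the count depends on the 2-fold limit. In control 0 of 9 genes were apart, beside 3.87% of genes higher and 7.22% lower in hepatocytes (1.64% and 11.9% with library totals alone). All 9 ratios were below 1, from 0.646 in Cytb (0.624 to 0.669) to 0.803 in Co3 (0.776 to 0.830), and with library totals alone they ran from 0.512 to 0.636.

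**Figure D4:**
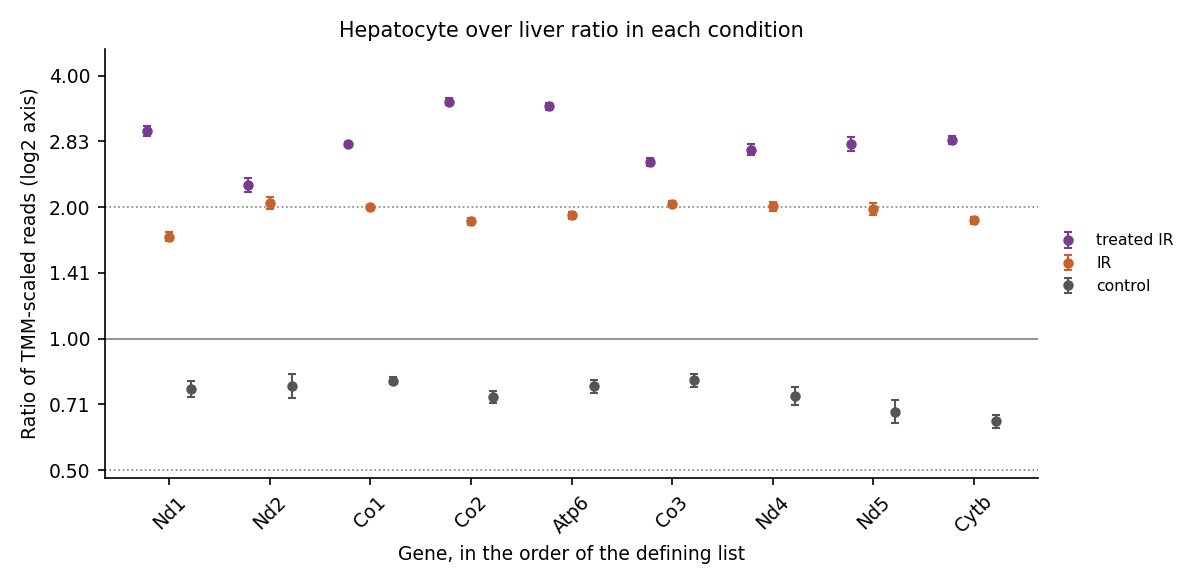
Ratio of TMM-scaled reads in hepatocytes to those in liver (log2 axis) for each of the 9 genes in treated IR, IR and control; points are ratios of 1 library to another, bars are 95% Clopper-Pearson counting intervals, and dotted lines mark 2-fold. Ratios lie between 2.25 and 3.49 in treated IR, between 1.71 and 2.05 in IR and between 0.646 and 0.803 in control.

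A spread between libraries could be estimated only from all 6 together. In edgeR's quasi-likelihood test with preparation and condition as terms, none of the 9 genes passed an adjusted p of 0.05 in any comparison. For hepatocytes vs liver 0 of 9 were called, beside 5.34% of genes, with log2 ratios from 0.61 in Cytb (SE 0.54) to 0.79 in Atp6 (SE 0.55) and adjusted p-values from 0.860 to 0.925. For IR vs control over both preparations 0 of 9 were called, beside 0% of genes. The log2 ratios were all above 0, from 0.43 in Co2 (SE 0.65) to 1.03 in Nd4 (SE 0.59), with edgeR adjusted p = 0.996 for each. For treated IR vs control 0 of 9 were called, beside 0% of genes, with log2 ratios from 0.67 to 0.97 and edgeR adjusted p = 1 (unadjusted 0.0956 to 0.333). For treated IR vs IR 0 of 9 were called, beside 0% of genes. Those log2 ratios lay on both sides of 0, from -0.15 in Co1 (SE 0.74) to 0.24 in Co2 (SE 0.64). At an unadjusted p under 0.05 edgeR gave 0 of 9 genes in all 4 comparisons. Of the 9932 genes tested it gave 998 for hepatocytes vs liver and 332 for IR vs control. It gave 230 for treated IR vs control and 297 for treated IR vs IR. DESeq2 and limma-voom also called 0 of 9 after adjustment. Over all genes DESeq2 called 441, 0, 0 and 1 in that order of comparisons, and limma-voom 569, 0, 0 and 0. By the same unadjusted limit DESeq2 gave 1 of the 9 genes for hepatocytes vs liver, beside 809 of all genes. It gave 3 for IR vs control, beside 119, and 2 for treated IR vs control, beside 101. For treated IR vs IR it gave 0, beside 175. By that limit limma-voom gave 1 of 9 for treated IR vs control, beside 225 of all genes. It gave 0 for hepatocytes vs liver, IR vs control and treated IR vs IR, beside 1034, 300 and 299. Without the hepatocyte control library the median log2 ratio of the 9 genes for IR vs control was -0.04 in place of 0.70, and for treated IR vs control 0.03 in place of 0.78. Without the hepatocyte IR library these medians were 0.58 and 0.80.

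This model gives both preparations the same response. A second edgeR model, added after the data were seen, let the preparations differ. It took the treated IR and IR libraries of a preparation as alike, so that any drug effect is part of the spread. An exchange of the labels of hepatocyte IR and control would change the hepatocyte ratios themselves, and their difference from liver. That fit was not run. In hepatocytes any IR vs control gave log2 ratios from 1.55 in Co2 (SE 0.59) to 1.90 in Nd4 (SE 0.52). Of the 9 genes 0 were called, beside 0% of genes (edgeR adjusted p = 1). At an unadjusted p under 0.05 stood 9 of 9 genes, at 0.00737 to 0.0431, and 324 of the 9932 tested. In liver the log2 ratios ran from -0.26 in Co2 (SE 0.54) to 0.30 in Nd2 (SE 0.43), with 0 of 9 called, beside 0% of genes. At an unadjusted p under 0.05 edgeR gave 0 of 9 there, with 244 of all genes tested. The difference between the responses, hepatocytes minus liver, ran from 1.46 in Nd2 (SE 0.61) to 1.83 in Cytb (SE 0.73). For it 0 of 9 genes were called, beside 0% of genes (edgeR adjusted p = 1), and 4 of 9 stood at an unadjusted p under 0.05, with 296 of all genes tested. After adjustment over all genes none of these comparisons passed, which does not show that the levels were alike. The 9 genes are read from shared precursor RNAs and are not independent of each other.

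Over the 6 libraries the make-up of the mitochondrially encoded reads changed less than their sum, which ran from 1.93% to 5.96% of reads in genes. This did not hold in every comparison. Among the livers, where the sum ran from 2.97% to 3.19%, and between treated IR and IR hepatocytes, the share of Co2 moved more than the sum. Of the reads of the 9 genes, Co1 made up 37.6%, 41.8% and 39.3% in hepatocyte treated IR, IR and control, and 38.9%, 40.8% and 37.5% in liver treated IR, IR and control. The gene with the widest relative range was Co2, at 12.1%, 9.15% and 11.7% in hepatocyte treated IR, IR and control, and 10.01%, 9.63% and 12.1% in liver treated IR, IR and control. Its highest share was 1.33 times its lowest, beside 1.11 times for Co1 and at most 1.32 times, in Nd2, for any other gene. Co2 thus made up less of these reads in the IR hepatocytes and both IR livers than in the controls and the treated IR hepatocytes. Wilson intervals reached at most 10.2% in the first set and at least 11.4% in the second. The 2 sets were formed from these same values, and the intervals cover counting error only. The gap between the sets is therefore no test of condition. Nd2 stood out only in liver treated IR, at 4.04% against 3.06% to 3.49% in the other 5 libraries. Nd4 was lowest in the controls, at 4.91% in hepatocytes and 5.08% in liver, and between 5.54% and 5.95% in the 4 libraries after IR. These shares do not depend on scaling between libraries.

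**Figure D5:**
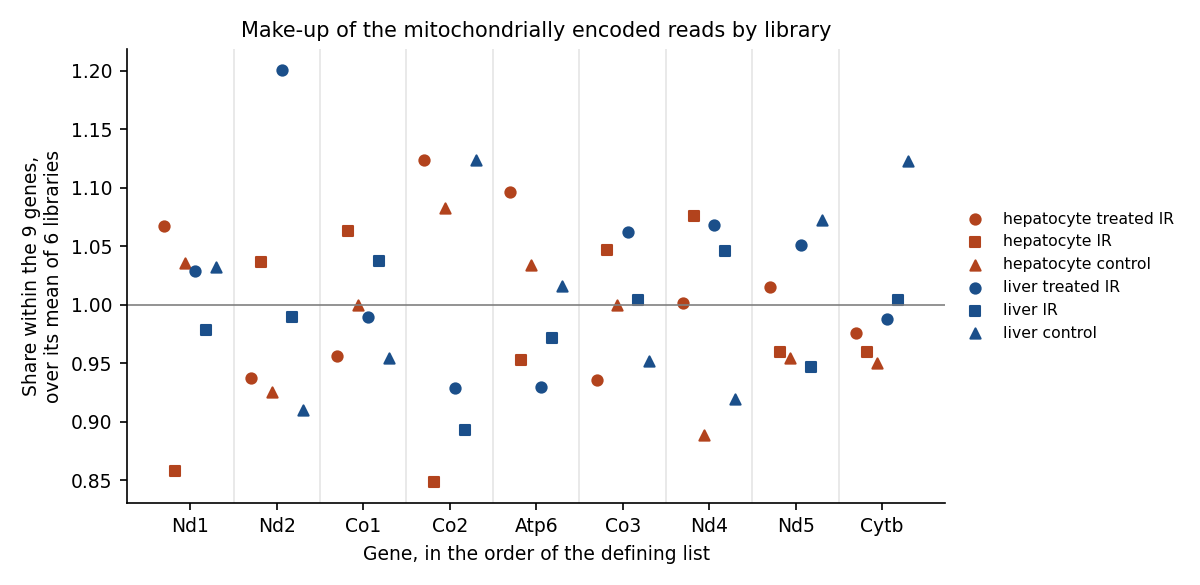
Share of each gene within the reads of the 9 mitochondrially encoded genes, divided by its mean over the 6 libraries (1 is the mean); red marks hepatocytes, blue liver, circles treated IR, squares IR and triangles control. Co2 and Nd1 are lowest in hepatocyte IR, Nd2 is highest in liver treated IR, and Nd4 is lowest in both controls.

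The difference in make-up between 2 libraries can be put as the percentage points of these reads that would have to move between genes. It was 6.19 points between hepatocyte treated IR and hepatocyte IR, although their sums were alike. Between hepatocyte treated IR and hepatocyte control it was 2.44 points, although the share of the 9 genes differed 2.90-fold. The smallest distances were 1.74 points, between hepatocyte treated IR and liver control, and 1.85 points, between hepatocyte IR and liver IR, and the largest was 6.64 points, between hepatocyte IR and liver control. Each of the 2 closest pairs thus joined a hepatocyte and a liver library. The library labelled hepatocyte control was 2.61 points from control liver, 3.12 from IR liver and 3.28 from treated IR liver. By make-up the libraries labelled hepatocyte IR and control thus stood nearest the liver of the same label, unlike by the 11 abundant genes above. Hepatocyte treated IR, however, stood nearest control liver. What these distances say of the labels was not tested.

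Genes outside the list whose levels followed the 9 most closely were sought among 962 genes with a mean of at least 100 CPM, by the root-mean-square difference of centred log2 CPM over the 6 libraries from the sum of the 9. The closest was ENSRNOG00000031053, at a difference of 0.082, with 576, 533 and 162 CPM in hepatocyte treated IR, IR and control and 227, 263 and 216 CPM in liver treated IR, IR and control. The next was ENSRNOG00000033615, at 0.214, with 451, 612 and 193 CPM in the hepatocytes and 201, 294 and 212 CPM in the livers in the same order. The 9 genes themselves lay between 0.057 in Co1 and 0.165 in Co2, though each is part of the sum it was set against. Both IDs thus were high in both hepatocyte libraries after IR and low in control hepatocytes, and neither the files nor the reference table names them.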

How the data were processed

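RNA of 6 pooled groups was enriched for poly(A), turned into Ion Total RNA-Seq libraries and sequenced on an Ion Torrent Proton instrument, per the labels' protocols and the design text. Each deposited file lists read counts, not normalized, by Ensembl gene ID. The submitters' processing notes name TopHat2 (2.0.13) and HTSeq (0.6.1). Build, annotation, strand and overlap settings are not given there. Summary lines of the counting were left out of library sizes.

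Groups were taken from titles. Genes passed edgeR's filterByExpr (minimum count 10, by condition), TMM factors ran from 0.794 to 1.24, and all p-values were adjusted over 9932 genes (Benjamini-Hochberg, 0.05). The model of preparation and condition left 2 residual degrees of freedom, with a biological coefficient of variation of 0.288. SEs were derived from the quasi-likelihood F statistic, and log2 pair ratios used a prior count of 2. All 9 genes were named, with at most 2 other genes by likeness of profile. The scripts were tested on simulated data. Members and lists were chosen with earlier results of these data known. Lists by symbol (nuclear-encoded subunits, mitochondrial DNA expression, other mitochondrial genes, cell type markers) matched no ID and gave no result. The software was edgeR (4.0.16), limma (3.58.1) and DESeq2 (1.42.0) under R 4.3.3. Alternatives are given in the closing section.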

Additional observations from a re-analysis of the deposited data

Results flagged for a closer look

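Several ratios pointed in opposite directions in hepatocytes and liver, and for these pairs of single libraries that contrast was not tested. The directions rest on labels of which those of hepatocyte IR and control are in doubt. For treated IR vs IR this held for 9 of 9 genes after TMM scaling. The ratios were 1.43 in hepatocytes and 0.818 in liver for Nd1, 1.04 and 0.944 for Nd2, 1.03 and 0.742 for Co1, and 1.52 and 0.809 for Co2, in that order of preparations. They were 1.32 in hepatocytes and 0.744 in liver for Atp6, 1.03 and 0.823 for Co3, and 1.07 and 0.794 for Nd4. For Nd5 they were 1.22 in hepatocytes and 0.864 in liver, and for Cytb 1.17 and 0.765. With library totals alone 3 of 9 were above 1 in hepatocytes and 7 of 9 in liver.

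For treated IR vs control 6 of 9 genes were opposed. The ratios were 3.52 in hepatocytes and 0.902 in liver for Nd1, 3.27 and 0.938 for Co1, and 3.55 and 0.748 for Co2. They were 3.63 in hepatocytes and 0.828 in liver for Atp6, 3.63 and 0.887 for Nd5, and 3.51 and 0.796 for Cytb. For IR vs control Co2 alone was opposed after TMM, at 2.33 in hepatocytes and 0.924 in liver. Reads placed at more than 1 site enter none of the comparisons. They gave 60.1% of the alignments in liver IR, against 46.3% in liver control.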

How the results depend on the processing

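No gene of the 9 was called by edgeR under any alternative scaling or filter. DESeq2 and limma-voom were run with every library and the main filter only, and also called 0 of 9. Leaving out 1 library at a time moved the median log2 ratio of the 9 genes between 0.26 and 1.23 for hepatocytes vs liver, -0.04 and 1.72 for IR vs control, -0.68 and 0.50 for treated IR vs IR, and 0.03 and 1.66 for treated IR vs control. Over all genes these fits called 390 to 755, 3 to 402, 0 to 659 and 0 to 37 genes in the same order, beside 530, 0, 0 and 0 with every library. The highest of these counts came without hepatocyte IR for hepatocytes vs liver and treated IR vs control, and without liver IR for the other comparisons. A minimum count of 50 left 158 genes for hepatocytes vs liver, and no expression filter gave 3, 31 and 14 for IR vs control, treated IR vs IR and treated IR vs control. Counting error was small for these genes, and each group holds 1 library. With a 1.5-fold limit, 1 of 9 genes was apart and higher for hepatocyte treated IR vs IR, beside 18.6% of all genes. For hepatocytes vs liver in control 1 of 9 was apart and lower, beside 9.59% of all genes. In IR 9 of 9 were apart and higher, beside 14.2%. There, at 2-fold, DESeq2's size factors gave 2 and library totals alone 5 in place of 4, beside 5.68% and 6.57% of all genes higher. With library totals alone 2 of 9 were apart for hepatocytes vs liver in treated IR in place of 9. Of all genes 1.09% were then higher, in place of 6.88%. That setting shifted all log2 ratios of hepatocytes vs liver by -0.62 in treated IR, 0.04 in IR and -0.32 in control. Why the scalings differ was not tested. The other counts of genes apart were the same under every alternative run. Library totals alone shifted all log2 ratios by -0.22 for hepatocyte treated IR vs control, 0.05 for hepatocyte IR vs control, -0.28 for hepatocyte treated IR vs IR, 0.07 for liver treated IR vs control, -0.31 for liver IR vs control and 0.38 for liver treated IR vs IR. With reads outside genes and ambiguous reads in the denominator, the summed share was 5.13%, 5.44% and 1.80% in hepatocyte treated IR, IR and control, and 2.79%, 2.75% and 2.93% in liver treated IR, IR and control. Without the most abundant gene of each library in the denominator it was 6.09%, 7.40% and 2.15% in the hepatocytes and 3.32%, 3.44% and 3.75% in the livers, in the same order. Leaving Co1 out of the make-up raised the widest range of a share to 1.35 times. No paired analysis was possible because the labels give no replicate numbers and each group holds 1 library.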
